A study of Schizosaccharomyces pombe with 8 samples.

Results

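The genes of the chromosome ends of fission yeast, Schizosaccharomyces pombe, were followed in cells without glutathione reductase and in wild type, with and without hydrogen peroxide. They were taken by the cosmid in their identifier: all genes whose identifier begins with 1 of 12 cosmid names of subtelomeric DNA (SPAC212, SPAC977, SPAC11D3, SPAC5H10, SPAC750, SPAC186, SPAC869, SPBC1348, SPBPB10D8, SPBPB2B2, SPBPB21E7 and SPBCPT2R1), less 2 genes set aside by name. This gave 141 of the 5165 genes in the table, 128 of them protein-coding and 13 pseudogenes by the reference annotation (assembly ASM294v3, used for names and gene order). They lie at 4 chromosome ends: 60 at the left and 27 at the right end of chromosome I, and 29 at the left and 25 at the right end of chromosome II.

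Subtelomeres are the regions next to the telomere repeats. In fission yeast they are packed into heterochromatin by the telomere protein Taz1, the RNA interference machinery, the histone H3 lysine 9 methyltransferase Clr4 and the protein Swi6, which binds the methylated histone, and further inward by other repressive chromatin, so that many of their genes are kept at a low level. They hold species-specific gene families in near-identical copies at several ends, together with genes of nutrient uptake, sugar use and detoxification.

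Poly(A) RNA was sequenced in 8 libraries, 2 for each of 4 groups: a pgr1 deletion mutant given hydrogen peroxide (H2O2, 1 mM, 30 min), the untreated mutant, wild type (strain 972) treated in the same way, and untreated wild type. Glutathione reductase, the product of pgr1, keeps glutathione in its reduced form. Cells grew in YE5S, a rich medium, at 30 °C to an OD600 of 0.5. There was 1 deletion strain. The labels do not state whether the 2 libraries of a group are separate cultures, so the spread behind each p-value may be technical.

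Libraries held between 12026222 and 14125543 recovered reads, and the p-values rest on 2 libraries a group in every comparison. The pgr1 transcript (SPBC17A3.07) was at 92.9 and 105 normalized counts in the treated mutant and 159 and 91.4 in the untreated mutant, against 7201 and 6792 in treated wild type and 4939 and 4805 in untreated wild type, and so followed the labels. Levels are the authors' DESeq2-normalized counts, which are not divided by gene length, so they are compared between libraries and not between genes. Where no other unit is given, values beside a gene are log2 fold changes ± SE, fitted with limma to log2(normalized count + 1) with n = 2 libraries in each group. A gene is called when its Benjamini-Hochberg adjusted p over all genes tested was below 0.05. The added 1 pulls fold changes of low genes towards 0.

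Many genes of the ends could not be tested. A gene was tested when it reached 10 normalized counts in at least 2 libraries. That left 102 members and took out 39 (27.7%), against 137 of all 5165 genes (2.65%). Of the members 7 had no read in any library, as had 22 genes of the whole table. Untested members lay towards the telomere: 19 of the 38 members among the first 10 genes of an end were not tested, 14 of 33 among genes 11 to 20, 6 of 33 among genes 21 to 30, and 0 of 37 farther in. Copies lay there too. At least 5% of the 31-base stretches of 62 members (44.0%) occur in another gene, against 212 genes of the whole table (4.13%), and 35 of the 38 members among the first 10 genes of an end were of this kind. Reads of such genes cannot be assigned to one copy with certainty, and they are described as sums after the other members.

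**Figure D1:**
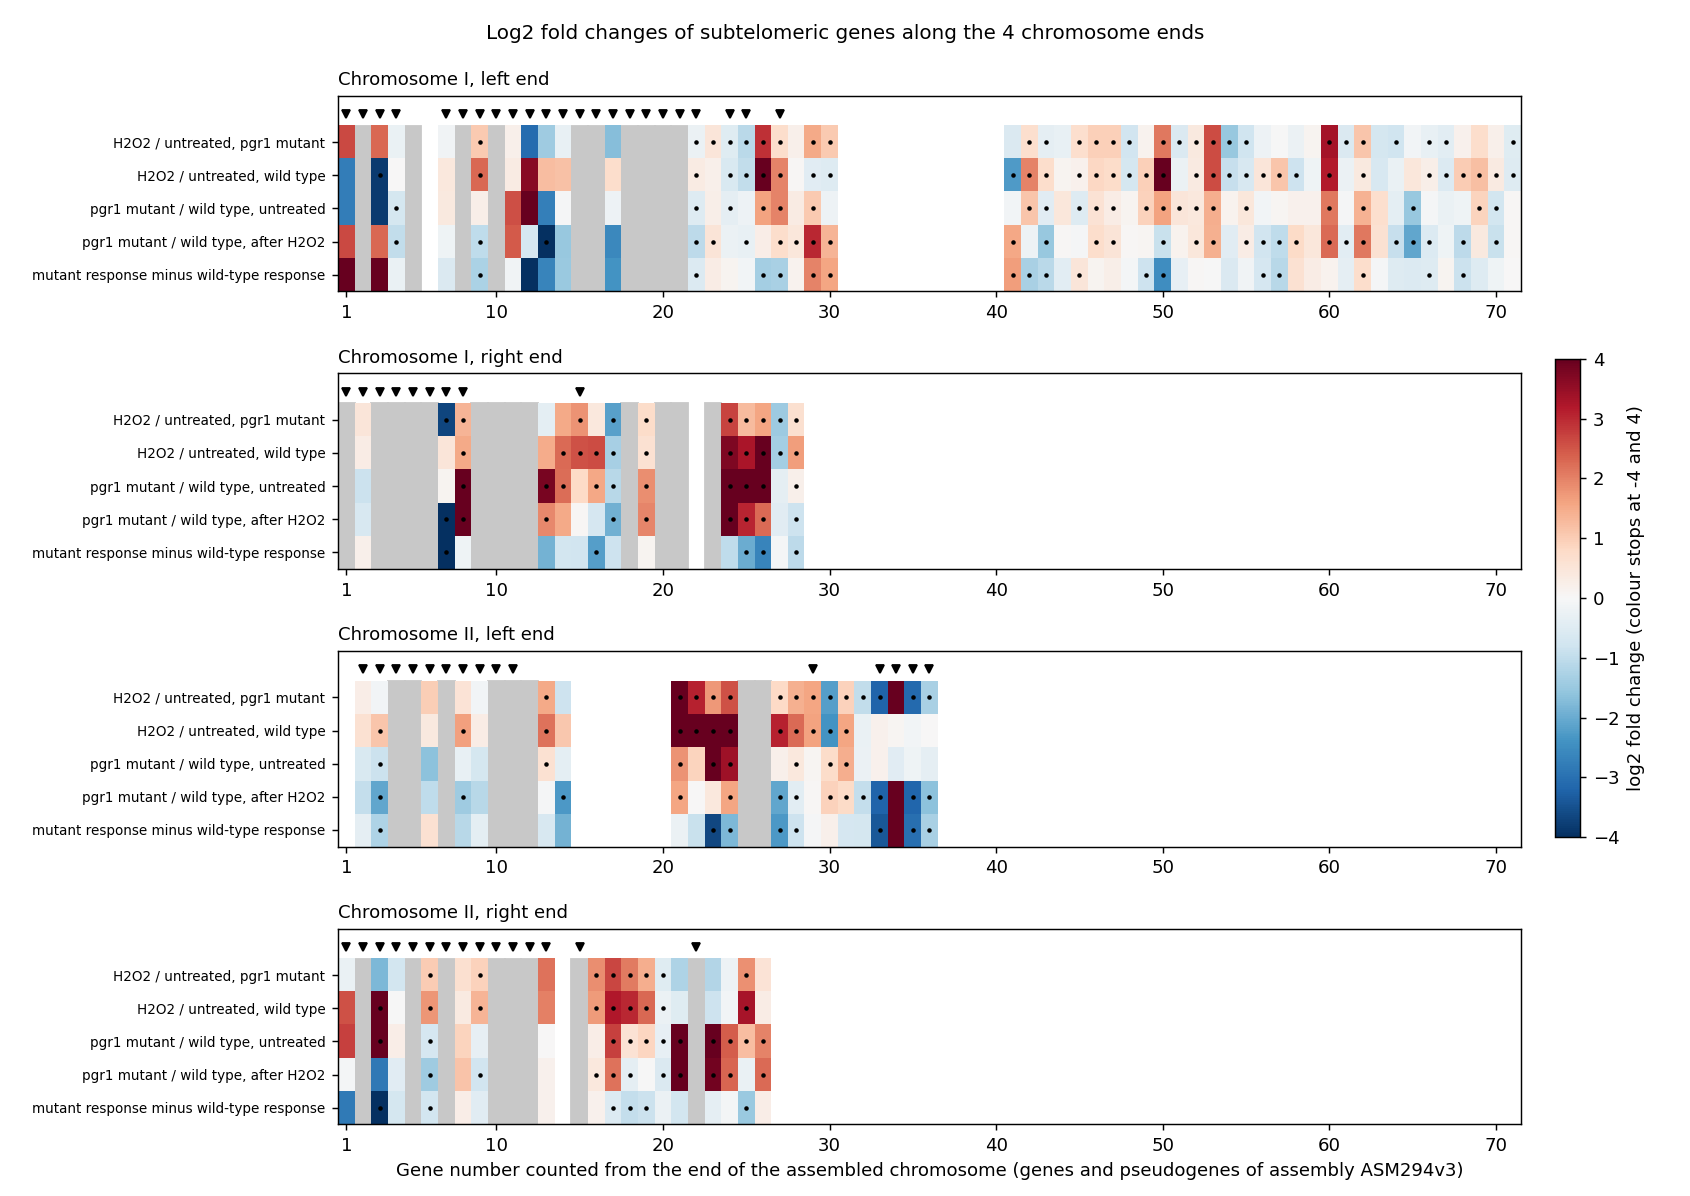
Log2 fold change of each member in 5 comparisons (rows) along the 4 chromosome ends, with genes numbered on the x axis inward from the end of the assembled sequence. Colour gives the log2 fold change, black dots mark called members, grey columns are members not tested, white columns are genes that are no members, and triangles mark members that share at least 5% of their 31-base stretches with another gene. Grey columns and triangles crowd the first 20 genes, and runs of neighbouring red columns stand at genes 24 to 26 of the right end of chromosome I, 21 to 24 of the left end and 16 to 19 of the right end of chromosome II.

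In the mutant treated with H2O2, 60 of the 102 tested members were called (68.2% of all 5028 genes tested): 38 rose and 22 fell against the untreated mutant, where 35.7% of all genes rose and 32.5% fell. The members' median log2 change was 0.23, and 26 members rose and 9 fell at least 2-fold, as did 9.69% and 7.90% of all genes. In wild type 65 members were called (72.3% of all genes): 49 rose with H2O2 and 16 fell, against 37.7% and 34.6% of all genes, with a median of 0.55. There 37 rose and 5 fell at least 2-fold (13.7% and 11.8% of all genes). Both strains raised 35 members and lowered 11. The same joint count was not made over all genes, so these counts have no background beside them.

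In untreated cells 51 members were called (38.5% of all genes), 40 of them higher and 11 lower in the mutant than in wild type, against 22.8% and 15.8% of all genes, with a median of 0.25. At least 2-fold, 27 were higher and 2 lower (5.63% and 0.994% of all genes). Quantile normalization, another scaling, gave 31 higher and 18 lower, with a median of -0.03, beside -0.09 for all genes. Without replicate 2 of the untreated mutant 28 were higher and 7 lower. After H2O2 61 were called (49.0% of all genes), with 30 higher and 31 lower in the mutant than in wild type (26.5% and 22.4% of all genes), with a median of -0.02, and 19 were higher and 17 lower at least 2-fold (5.33% and 2.59% of all genes). Of the 40 that were higher in the untreated mutant, 24 were also higher after H2O2 and 4 were lower. The 2 comparisons share no library, but they share the strains and 1 fit. The like count over all genes was not made.

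The response to H2O2 differed between the strains for 36 members (27.3% of all genes): the mutant response minus the wild-type response was negative for 31 and positive for 5, against 15.3% and 12.0% of all genes, with a median difference of -0.53. For 21 and 3 of them the difference was at least 2-fold (4.42% and 2.33% of all genes). Quantile normalization gave 22 and 7, with a median of -0.25, beside 0.04 for all genes. The difference is built from the same libraries as the 4 comparisons above, so it is no separate evidence.

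Members with and without near-identical sequence elsewhere were also counted separately. Over all genes tested, 22.8% were higher and 15.8% lower in the untreated mutant, and 26.5% and 22.4% after H2O2. With H2O2 in wild type 37.7% of all genes rose and 34.6% fell. The difference of responses was positive for 12.0% and negative for 15.3% of all genes. Among the 67 tested members that share under 5% of their sequence, 37 were higher and 6 lower in the untreated mutant, and 28 were higher and 18 lower after H2O2. Among the 35 tested copies 3 were higher and 5 lower in the untreated mutant, and 2 were higher and 13 lower after H2O2. Of the next 30 genes inward of each end 118 were tested. In the untreated mutant 26 of them (22.0%) were higher and 18 (15.3%) lower. With H2O2 in wild type 47 (39.8%) were higher and 45 (38.1%) lower. These shares were near those of all genes. Genes of the same 4 ends that are no members, 14 of them tested, had 9 higher and 1 lower in the untreated mutant. With H2O2 in wild type 4 of these 14 were higher and 5 lower. In the difference of responses 5 of the 67 members were higher and 21 lower, against 0 and 10 of the 35 copies and 14 and 22 of the 118 inward genes. The difference between these sets of genes was not tested.

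**Figure D2:**
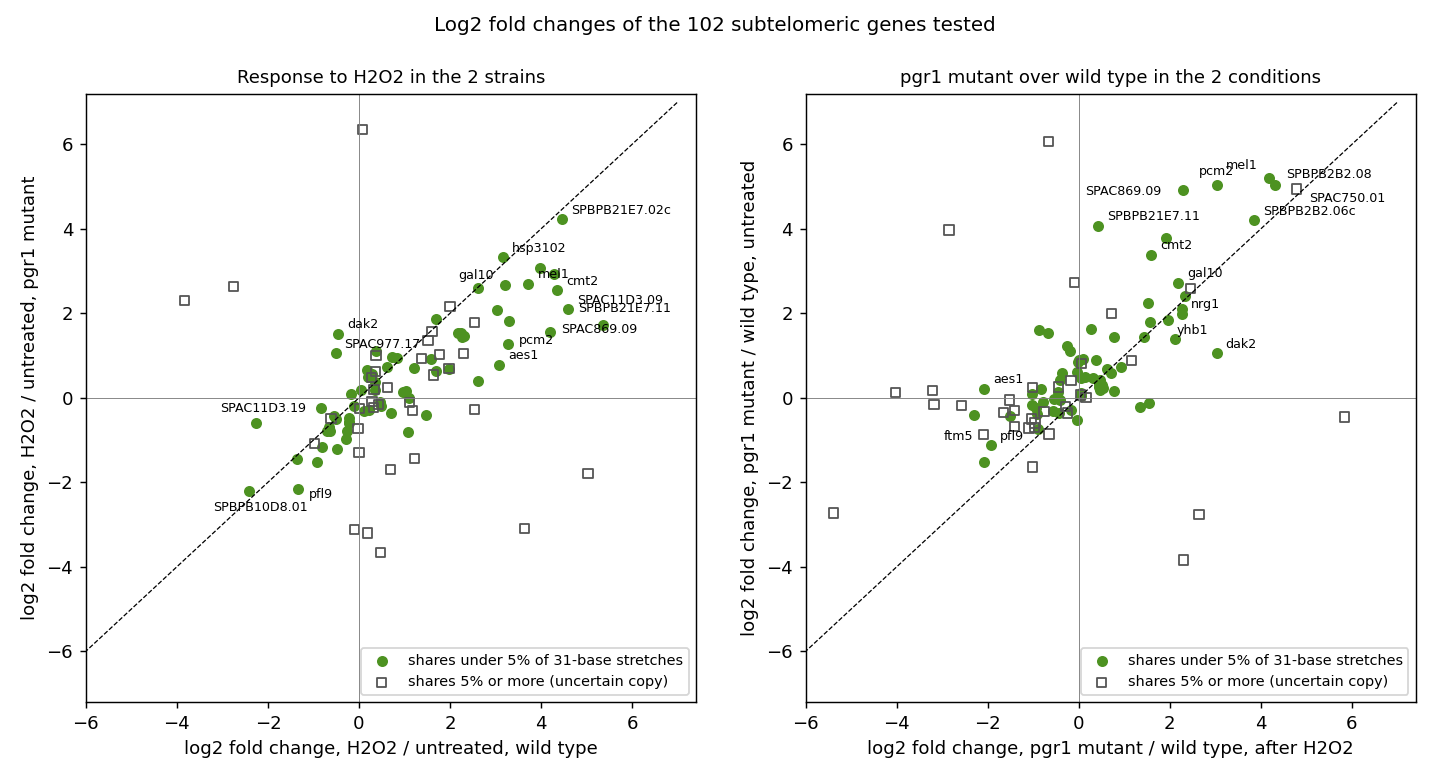
Log2 fold changes of the 102 tested members: on the left the response to H2O2 in the pgr1 mutant (y axis) against that in wild type (x axis), on the right the mutant over wild type in untreated cells (y axis) against the same after H2O2 (x axis). Filled circles are members sharing under 5% of their 31-base stretches and open squares are uncertain copies; the dashed line marks equal values. Most circles with a large rise in wild type lie below the line on the left, and dak2 and SPAC977.17 lie above it with opposite signs. Several of the open squares far from the line are copies that hold no reads in some libraries. The copy SPBPB10D8.06c, also far from the line on the left, holds reads in every library.

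Of 15 oxidoreductase and glyoxalase genes 10 were tested. In the mutant 6 rose and 1 fell with H2O2 (35.7% and 32.5% of all genes), with 5 and 1 under quantile normalization. In wild type 8 rose and 0 fell (37.7% and 34.6% of all genes). In untreated cells 7 were higher and 0 lower in the mutant than in wild type (22.8% and 15.8% of all genes). For 1 of the 7, SPAC186.02c, this was not called under quantile normalization (0.80) or a fit of the 2 groups alone (1.53). With single libraries left out that ended its call, its value lay between 0.74 and 1.58. The hsp31-type genes encode glyoxalase III enzymes, which remove the reactive aldehyde methylglyoxal. The hsp3104 transcript had 13792 and 15011 normalized counts in the treated mutant, 2404 and 2332 in the untreated mutant, 5891 and 4839 in treated wild type, and 1031 and 738 in untreated wild type. Every treated library stood above every untreated library of its strain, and every mutant library above the wild-type libraries of the same treatment. It rose with H2O2 by 2.60 ± 0.15 in the mutant and 2.61 ± 0.15 in wild type (limma, adjusted p = 1.04e-06 and 4.54e-07). The mutant was higher by 1.44 ± 0.15 in untreated cells and 1.43 ± 0.15 after H2O2.

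The second glyoxalase gene of the ends, hsp3102, had 1289.6 and 1361 normalized counts in the treated mutant, 140.2 and 123 in the untreated mutant, 262 and 289.7 in treated wild type, and 23.6 and 37.4 in untreated wild type. It followed the same order of groups at a lower count. Its H2O2 response was 3.32 ± 0.20 in the mutant and 3.17 ± 0.20 in wild type, and the mutant was higher by 2.11 ± 0.20 untreated and 2.26 ± 0.20 after H2O2. For neither gene did the responses of the strains differ past the threshold, with differences of -0.01 ± 0.21 and 0.15 ± 0.28. The nitric oxide dioxygenase gene yhb1, whose enzyme turns nitric oxide into nitrate, had 9838 and 10831 normalized counts in the treated mutant, 5974 and 6485 in the untreated mutant, 2699 and 2616 in treated wild type, and 1638 and 1831 in untreated wild type. Its main contrast was between strains: the mutant was higher by 1.84 ± 0.08 untreated and 1.96 ± 0.08 after H2O2, and H2O2 raised it by 0.73 ± 0.08 in the mutant and 0.62 ± 0.08 in wild type.

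An aldo-keto reductase gene, SPAC977.14c, had 54885 and 59192 normalized counts in the treated mutant, 34170.2 and 36171 in the untreated mutant, 33530.1 and 35916 in treated wild type, and 8546 and 9064 in untreated wild type. The untreated mutant and treated wild type overlapped, and the treated mutant stood above both. The mutant was higher by 2.0 ± 0.09 untreated and 0.72 ± 0.09 after H2O2. H2O2 raised it by 1.98 ± 0.09 in wild type and by 0.70 ± 0.09 in the mutant, a rise not called under quantile normalization, and the responses differed by -1.28 ± 0.13 (limma, adjusted p = 0.000248). It shares 33.36% of its 31-base stretches with another gene, the related SPAC750.01 on another end, which shares 37.6%. SPAC750.01 had 368 and 347 normalized counts in the treated mutant, 138 and 142 in the untreated mutant, 11.6 and 12.6 in treated wild type, and 3.50 and 3.65 in untreated wild type. It was higher in the mutant by 4.94 ± 0.21 untreated and 4.78 ± 0.21 after H2O2. The counts of SPAC750.01 came to 0.670% and 0.587% of those of SPAC977.14c in the treated mutant, 0.403% and 0.392% in the untreated mutant, 0.0345% and 0.0352% in treated wild type, and 0.0410% and 0.0402% in untreated wild type. The share was thus higher in all mutant libraries, also where counts of SPAC977.14c overlapped, and how far reads of 1 gene were counted for the other was not tested.

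Other reductase genes moved less alike. The FAD-binding oxidoreductase gene SPAC5H10.05c was higher in the mutant by 1.39 ± 0.07 untreated and 2.11 ± 0.07 after H2O2, but 86.8% of its exons lie opposite another gene. The hydroxyacid dehydrogenase gene SPAC186.02c rose by 2.62 ± 0.47 with H2O2 in wild type and was at 0.41 ± 0.47, not called, in the mutant. The alcohol dehydrogenase gene adh4 fell with H2O2 in the mutant (-0.79 ± 0.17) and was lower there than in treated wild type (-0.92 ± 0.17). Of the 2 NADPH dehydrogenase genes, SPAC5H10.10 rose in treated wild type (1.03 ± 0.16) and was lower in the treated mutant than in treated wild type (-1.03 ± 0.16), and SPAC5H10.04 was called in no comparison.

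**Figure D3:**
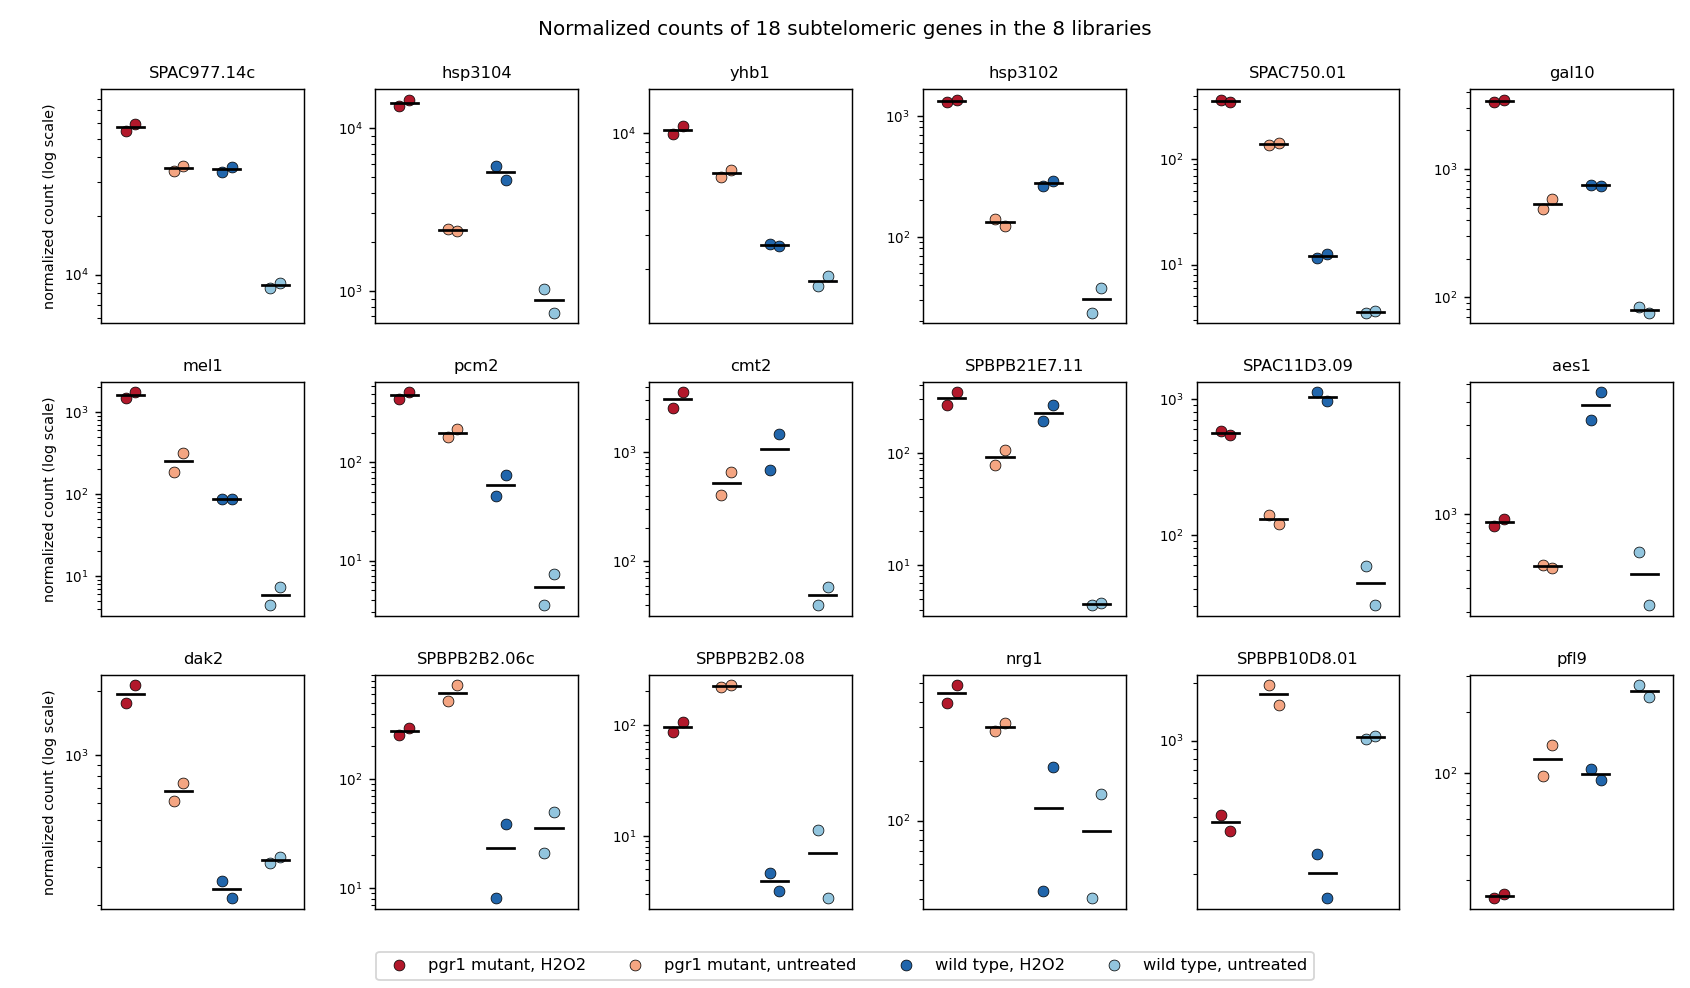
Normalized counts (y axes, log scale, each with its own range) of 18 members in the 8 libraries. Points are libraries, black lines are means of the 2 libraries, and groups run from left to right as treated mutant, untreated mutant, treated wild type and untreated wild type. Untreated wild type is lowest for most genes of the upper 2 rows, while SPBPB2B2.06c, SPBPB2B2.08 and nrg1 are high in all 4 mutant libraries and SPBPB10D8.01 and pfl9 are low in treated cells.

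The galactose genes gal1, gal10 and gal7, which encode the Leloir enzymes galactokinase, epimerase and uridylyltransferase, lie beside each other with tgd1, a nucleotide-sugar dehydratase gene, as genes 16 to 19 of the right end of chromosome II. All 4 rose with H2O2 in both strains. The gal10 transcript had 3308 and 3484 normalized counts in the treated mutant, 486 and 580.1 in the untreated mutant, 754 and 742 in treated wild type, and 84.0 and 75.7 in untreated wild type. The groups did not overlap, and the treated mutant lay above all other libraries. It rose with H2O2 by 2.67 ± 0.10 in the mutant and 3.21 ± 0.10 in wild type (limma, adjusted p = 1.37e-07 and 1.62e-08), and the mutant was higher by 2.72 ± 0.10 untreated and 2.18 ± 0.10 after H2O2. Because 93.7% of its exons and 98.8% of those of tgd1 lie opposite another gene, and no source used here gives the strand setting of the counting, the reads of the 2 genes may be mixed.

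The gal7 transcript had 1175 and 1318 normalized counts in the treated mutant, 415 and 492 in the untreated mutant, 1187 and 1317 in treated wild type, and 264 and 239.8 in untreated wild type. Treated libraries of both strains lay between 1175 and 1318, and the untreated mutant lay above untreated wild type. It rose by 1.46 ± 0.11 in the mutant and 2.31 ± 0.11 in wild type, a difference in response of -0.85 ± 0.16, and it was higher in the untreated mutant by 0.84 ± 0.11. The gal1 transcript rose by 1.87 ± 0.12 and 1.69 ± 0.12 in mutant and wild type, and was at 0.25 ± 0.12, not called, in the untreated mutant. Its neighbour tgd1 rose by 2.08 ± 0.12 and 3.03 ± 0.12 in mutant and wild type. Of the 3 galactosyltransferase genes of the ends, whose enzymes add galactose to cell surface glycans, otg1 was lower in the mutant (-0.73 ± 0.11 untreated, -0.89 ± 0.11 after H2O2). The gmh2 transcript fell with H2O2 in both strains (-0.50 ± 0.07 and -0.51 ± 0.07 in mutant and wild type), and gmh1 rose in wild type (1.20 ± 0.28).

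The neighbours mel1, pcm2 and SPAC869.09 at the right end of chromosome I, as genes 24 to 26, were among the members with the largest strain differences in untreated cells. The gene mel1 encodes melibiase, which frees galactose from melibiose. The mel1 transcript had 1474 and 1734 normalized counts in the treated mutant, 188 and 320.2 in the untreated mutant, 87.9 and 86.4 in treated wild type, and 4.38 and 7.29 in untreated wild type. The groups did not overlap, and even treated wild type stayed under the untreated mutant. It was higher in the mutant by 5.20 ± 0.28 untreated and 4.18 ± 0.28 after H2O2 (limma, adjusted p = 1.26e-06 and 6.01e-06), and rose with H2O2 by 2.70 ± 0.28 and 3.72 ± 0.28 in mutant and wild type. Beside it, pcm2 encodes a methyltransferase that repairs damaged aspartate residues in proteins. The pcm2 transcript had 445 and 516 normalized counts in the treated mutant, 179.8 and 218 in the untreated mutant, 45.1 and 73.7 in treated wild type, and 3.50 and 7.29 in untreated wild type. The order of the groups was that of mel1, with values of 5.03 ± 0.32 and 3.03 ± 0.32 for the mutant untreated and after H2O2. Its H2O2 response was 1.27 ± 0.32 in the mutant and 3.26 ± 0.32 in wild type.

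The last of these genes, SPAC869.09, encodes a Con-6 family protein, a family named after a conidiation gene of Neurospora. SPAC869.09 had 167 and 250.1 normalized counts in the treated mutant, 50.3 and 93.0 in the untreated mutant, 32.4 and 52.7 in treated wild type, and 0.875 and 1.82 in untreated wild type. Untreated wild type held 3 reads in all. The untreated mutant therefore stood 54.1-fold above untreated wild type, with a 95% counting interval of 18.2 to 265, and treated wild type 32.1-fold above it, with an interval of 10.6 to 159; these intervals cover counting error only. After H2O2 the mutant was higher by 2.28 ± 0.40. The other Con-6 family gene, SPAC11D3.01c at the left end of chromosome I, rose by 0.67 ± 0.18 in the mutant and 1.98 ± 0.18 in wild type, and was higher in the untreated mutant by 1.10 ± 0.18. Its rise in the mutant was not called without treated mutant replicate 2 (0.52).

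At the inner part of the right end of chromosome II, 4 genes were high in the mutant in both conditions and called with H2O2 in neither strain. They are SPBPB2B2.08, of unknown function, SPBPB2B2.06c, annotated as a phosphatase of the 5'-nucleotidase family, SPBPB2B2.05, a glutamine amidotransferase family gene, and nrg1, annotated as an amino-acid permease gene, at positions 21, 23, 24 and 26. SPBPB2B2.06c had 255 and 296 normalized counts in the treated mutant, 521 and 728 in the untreated mutant, 8.09 and 39.0 in treated wild type, and 21.01 and 50.1 in untreated wild type. All mutant libraries lay above all wild-type libraries, and wild-type libraries of a group differed among themselves. It was higher in the mutant by 4.20 ± 0.62 untreated and 3.86 ± 0.62 after H2O2, and its H2O2 response was -1.16 ± 0.62 in the mutant and -0.82 ± 0.62 in wild type. SPBPB2B2.08 had 85.6 and 105 normalized counts in the treated mutant, 218 and 226 in the untreated mutant, 4.62 and 3.16 in treated wild type, and 11.4 and 2.73 in untreated wild type. The mutant was higher by 5.04 ± 0.50 untreated and 4.31 ± 0.50 after H2O2. The wild-type libraries alone did not meet the filter for SPBPB2B2.08, so this gene was tested only through its mutant libraries. A higher level of SPBPB2B2.08 in the mutant was thus favoured by the filter.

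SPBPB2B2.05 was higher in the mutant by 2.42 ± 0.33 untreated and 2.33 ± 0.33 after H2O2. The nrg1 transcript had 397 and 486 normalized counts in the treated mutant, 285 and 311 in the untreated mutant, 43.9 and 188 in treated wild type, and 40.3 and 136 in untreated wild type. In wild type the second library of each treatment held at least 3 times the first in this gene. The mutant was higher by 1.99 ± 0.66 untreated and 2.26 ± 0.66 after H2O2, calls that ended when single libraries were left out, at values between 1.13 and 2.05 untreated and between 1.22 and 2.40 after H2O2, and with DESeq2. Between them, say1, annotated as a sterol deacetylase gene, had another pattern: it rose with H2O2 by 1.83 ± 0.19 in the mutant and 3.30 ± 0.19 in wild type, was higher in the untreated mutant by 1.22 ± 0.19 and was at -0.26 ± 0.19, not called, after H2O2.

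Members of cosmid SPBPB21E7, at the left end of chromosome II, included the called member with the highest fitted rise with H2O2 in wild type. All 7 tested genes of this cosmid rose with H2O2 in both strains, where 35.7% of all genes rose in the mutant and 37.7% in wild type. Of these, SPBPB21E7.02c and SPBPB21E7.10 stayed under 10 normalized counts in all untreated libraries, so they passed the filter only through treated libraries. A rise of these genes was thus favoured by the filter, and the count of 7 cannot be weighed against the shares of all genes. The response in the mutant was smaller for 4 of the 7 (the difference was negative for 15.3% of all genes), and for cmt2, 1 of the 4, that call ended without any 1 of 5 libraries (between -2.04 and -1.25). SPBPB21E7.11, an uncharacterised gene, had 268 and 344 normalized counts in the treated mutant, 78.2 and 106 in the untreated mutant, 192 and 263 in treated wild type, and 4.38 and 4.56 in untreated wild type. Untreated wild type stood apart from the other 6 libraries. It rose by 5.37 ± 0.24 in wild type and 1.72 ± 0.24 in the mutant (limma, adjusted p = 9.12e-08 and 0.000184), a difference of -3.65 ± 0.33 (limma, adjusted p = 0.000135). The untreated mutant was higher than untreated wild type by 4.08 ± 0.24, and after H2O2 the strains were 0.43 ± 0.24 apart, which was not called.

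Its neighbour cmt2, a catechol O-methyltransferase gene, had 2568 and 3535 normalized counts in the treated mutant, 403 and 653 in the untreated mutant, 681 and 1475 in treated wild type, and 39.4 and 58.3 in untreated wild type. It rose by 2.55 ± 0.37 in the mutant and 4.36 ± 0.37 in wild type, and the mutant was higher by 3.39 ± 0.37 untreated. Its strain difference after H2O2, 1.59 ± 0.37, was no longer called without treated mutant replicate 2 (1.36). SPBPB21E7.02c, of the phosphoglycerate mutase family, had 56.2 and 73.7 normalized counts in the treated mutant, 1.80 and 3.35 in the untreated mutant, 21.97 and 20.02 in treated wild type, and 0 and 0 in untreated wild type. With a floor of 3 reads per library, it was at least 7.83-fold higher in treated than in untreated wild type, and it rose in the mutant by 4.23 ± 0.50. The gene aes1, annotated as a phenazine biosynthesis family gene, had 867 and 942 normalized counts in the treated mutant, 534 and 514 in the untreated mutant, 3205 and 4511 in treated wild type, and 629 and 324 in untreated wild type. Treated wild type was highest, and the treated mutant lay above the untreated libraries of both strains. It rose in wild type by 3.07 ± 0.27, and the treated mutant stood below treated wild type, at -2.07 ± 0.27. Its rise in the mutant, 0.79 ± 0.27, was not called in DESeq2 or without any 1 of 4 libraries (between 0.73 and 0.85).

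Genes that move or split amino acids went in both directions. SPBPB10D8.01, annotated as a cysteine transporter gene, had 409 and 338 normalized counts in the treated mutant, 1946 and 1539.9 in the untreated mutant, 256 and 149.6 in treated wild type, and 1023 and 1059 in untreated wild type. Treated libraries of both strains lay under all untreated ones. It fell with H2O2 by 2.21 in the mutant and by 2.41 in wild type on the log2 scale (SE 0.22 each; limma, adjusted p = 2.88e-05 and 1.13e-05). The proline transporter gene put4 fell likewise (-1.45 ± 0.19 and -1.37 ± 0.19 in mutant and wild type). The gene cat1, which encodes an arginine and lysine transporter, had 3159 and 3186 normalized counts in the treated mutant, 2104 and 1982 in the untreated mutant, 5341 and 5947 in treated wild type, and 1826 and 1686 in untreated wild type. It rose in both strains, by 0.64 ± 0.08 in the mutant and 1.68 ± 0.08 in wild type, and the treated mutant stayed under treated wild type (-0.83 ± 0.08). The amino-acid permease gene SPAC11D3.08c was at 0.14 ± 0.09, not called, in the mutant and rose by 0.97 ± 0.09 in wild type, and the responses differed by -0.83 ± 0.12. It was higher in the untreated mutant by 0.91 ± 0.09.

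The agmatinase gene SPAC11D3.09, whose enzyme family splits agmatine into putrescine and urea, had 586 and 540.4 normalized counts in the treated mutant, 140.2 and 121 in the untreated mutant, 1120.4 and 962 in treated wild type, and 58.7 and 30.1 in untreated wild type. Treated wild type was highest and untreated wild type lowest. It rose by 2.10 ± 0.26 in the mutant and 4.59 ± 0.26 in wild type, with a difference of -2.49 ± 0.37 (limma, adjusted p = 0.0015), and was higher in the untreated mutant by 1.61 ± 0.26. The oxoprolinase genes SPAC11D3.14c and SPAC11D3.15, whose enzyme family turns 5-oxoproline, a product of glutathione breakdown, into glutamate, fell in both strains. SPAC11D3.14c was at -1.51 ± 0.19 in the mutant and -0.92 ± 0.19 in wild type, and SPAC11D3.15 at -0.78 ± 0.09 and -0.63 ± 0.09 in mutant and wild type.

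The dihydroxyacetone kinase gene dak2 and its neighbour SPAC977.17, genes 29 and 30 of the left end of chromosome I, rose with H2O2 in the mutant and fell in wild type. The dak2 transcript had 1753 and 2123 normalized counts in the treated mutant, 612 and 744 in the untreated mutant, 258 and 215 in treated wild type, and 313 and 335 in untreated wild type. The treated mutant was highest and treated wild type lowest, with no overlap between any groups. It rose by 1.51 ± 0.14 in the mutant and was at -0.46 ± 0.14 in wild type, a difference of 1.97 ± 0.20 (limma, adjusted p = 0.000201). The fall in wild type was not called without treated wild-type replicate 2 or untreated wild-type replicate 2 (between -0.41 and -0.33), or under quantile normalization. SPAC977.17, a gene of the MIP superfamily of water and glycerol channels, had 1409 and 1395 normalized counts in the treated mutant, 703 and 652 in the untreated mutant, 545 and 558 in treated wild type, and 830.0 and 748 in untreated wild type. It rose by 1.05 ± 0.08 in the mutant and was at -0.51 ± 0.08 in wild type, a difference of 1.56 ± 0.12 (limma, adjusted p = 4.26e-05). In untreated cells dak2 was higher in the mutant by 1.06 ± 0.14, while SPAC977.17 was at -0.22 ± 0.08 and not called. The reverse pattern, a fall in the mutant and a rise in wild type, was seen for 3 members. These were the acetyltransferase family gene SPAC11D3.02c (-0.36 ± 0.12 and 0.71 ± 0.12 in mutant and wild type), the pantothenate gene pan6 (-0.30 ± 0.08 and 0.22 ± 0.08) and the phospholipase gene plb4 (-0.22 ± 0.08 and 0.32 ± 0.08). The fall of SPAC11D3.02c was not called without treated mutant replicate 1 or treated mutant replicate 2 or untreated mutant replicate 1 (between -0.36 and -0.29). The fall of plb4 was not called without treated mutant replicate 1 or treated mutant replicate 2 or untreated mutant replicate 1 (between -0.28 and -0.14), or under quantile normalization, DESeq2 or a fit of the 2 groups alone, and it is an uncertain copy. The fall of pan6 was not called without treated mutant replicate 2 or untreated mutant replicate 1 (between -0.28 and -0.22) and its rise was not called without any 1 of 5 libraries (between 0.17 and 0.24), or under DESeq2 or a fit of the 2 groups alone.

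Of the other transporter genes of the ends 11 were tested. With H2O2 3 rose and 3 fell in the mutant (35.7% and 32.5% of all genes), and 1 rose and 4 fell in wild type (37.7% and 34.6%). Between strains 2 were higher and 1 lower in the untreated mutant (22.8% and 15.8%), and 5 higher and 2 lower after H2O2 (26.5% and 22.4%). The MFS transporter gene mfs2 rose in both strains (0.94 ± 0.18 and 0.84 ± 0.18 in mutant and wild type). The MatE family gene SPAC11D3.06 fell in both (-0.78 ± 0.14 and -0.70 ± 0.14), but all of its exons lie opposite another gene. The gene nhe1, of the sodium ion and proton antiporter, rose in the treated mutant (0.50 ± 0.10) and was at 0.20 ± 0.10 in wild type. The GDT1-like gene gdt1, of a family of ion transporters, had 97.8 and 71.5 normalized counts in the treated mutant, 109 and 113 in the untreated mutant, 31.2 and 14.8 in treated wild type, and 16.6 and 2.73 in untreated wild type. All mutant libraries lay above all wild-type libraries. It was higher in the untreated mutant by 3.79 ± 0.64. The hexose transporter gene ght7 was lower in the treated mutant than in treated wild type (-2.30 ± 0.61), a call that ended without treated mutant replicate 2 or treated wild-type replicate 1 (between -2.02 and -1.62).

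With H2O2 3 of the 4 transcription factor genes rose in the mutant and all 4 in wild type, as did 35.7% and 37.7% of all genes. The toe4 transcript rose by 0.96 ± 0.09 and 0.73 ± 0.09 in mutant and wild type, and SPBC1348.12 by 1.52 ± 0.19 and 2.17 ± 0.19. SPAC11D3.17 rose by 1.10 ± 0.21 in wild type and was at -0.00 ± 0.21 in the mutant. The arylsulfatase gene SPBPB10D8.02c rose by 0.91 ± 0.17 in the mutant and 1.58 ± 0.17 in wild type, and was higher in the untreated mutant by 1.45 ± 0.17. The 3 genes of pantothenate synthesis, the vitamin at the base of coenzyme A, fell in the mutant with H2O2: pan5 was at -0.47 ± 0.08, pan6 at -0.30 ± 0.08 and ecm31 at -0.43 ± 0.16. The fall of ecm31 was not called without treated mutant replicate 2 or untreated mutant replicate 1 or untreated mutant replicate 2 (between -0.53 and -0.31), or under quantile normalization or DESeq2.

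The gene pfl9, a gene of the DIPSY family of cell surface glycoproteins, had 24.4 and 25.7 normalized counts in the treated mutant, 97.1 and 137 in the untreated mutant, 105 and 92.7 in treated wild type, and 269 and 236 in untreated wild type. Untreated wild type was highest and the treated mutant lowest, without overlap between the treated and untreated libraries of a strain. It fell with H2O2 by 2.16 and 1.34 on the log2 scale in mutant and wild type, and the mutant stood below wild type, at -1.12 ± 0.20 untreated and -1.94 ± 0.20 after H2O2. The pseudogene SPAC977.13c, which lies beside SPAC977.14c, had 944 and 1003 normalized counts in the treated mutant, 109.7 and 148 in the untreated mutant, 661 and 988 in treated wild type, and 41.1 and 40.1 in untreated wild type. It rose by 2.92 ± 0.20 in the mutant and 4.28 ± 0.20 in wild type. Among uncharacterised members, SPAC11D3.19 fell with H2O2 in wild type (-2.25 ± 0.32) and was at -0.59 ± 0.32 in the mutant, and SPAC5H10.07 was lower in the mutant (-1.52 ± 0.37 untreated, -2.07 ± 0.37 after H2O2). The untreated call of SPAC5H10.07 ended without untreated mutant replicate 2 or untreated wild-type replicate 1 (between -1.34 and -1.02). SPAC11D3.04c, of the SnoaL-like family, rose with H2O2 by 0.67 ± 0.06 in the mutant and was lower in the untreated mutant (-0.53 ± 0.06).

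Near-identical copies were summed where they share at least 50% of their 31-base stretches, which gave 21 groups with 54 members; 14 of these sums passed the filter. Single copies switched between libraries of one group: 7 members held 0 in 1 library and at least 20 normalized counts in the other library of the same group, all of them in copy groups, out of 10 such genes in the whole table. The helicase genes tlh1 and tlh2, RecQ-type helicases that lie outermost at the ends, are 1 such pair. The tlh1 transcript had no read in 6 libraries, 37.9 normalized counts in the first library of the treated mutant and 44.7 in the second of untreated wild type. Their sum was 127 and 103 normalized counts in the treated mutant, 129 and 106 in the untreated mutant, 278 and 36.9 in treated wild type, and 309.9 and 44.7 in untreated wild type. Mutant libraries lay between 103 and 129, while the wild-type libraries of each treatment lay apart, the first above and the second below all mutant libraries. The sum was called in no comparison, with an H2O2 response of -0.03 ± 0.95 in the mutant and -0.21 ± 0.95 in wild type. Another helicase-like gene, SPAC212.06c, was called in no comparison either, with 17.9 to 22.5 normalized counts in mutant libraries and 15.8 to 24.2 in wild-type libraries.

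The largest family of the ends is that of the DUF999 genes, of unknown function, with 10 members, 6 of them tested. The sum of 5 near-identical members was 788 and 824 normalized counts in the treated mutant, 489 and 442 in the untreated mutant, 1829 and 1918 in treated wild type, and 587 and 613 in untreated wild type. Treated wild type was highest, untreated mutant lowest, and no groups overlapped. The sum rose with H2O2 by 0.79 ± 0.08 in the mutant and 1.64 ± 0.08 in wild type (limma on the sums, adjusted p = 2.52e-05 and 1.26e-07). It was lower in the mutant after H2O2, at -1.22 ± 0.08. SPBCPT2R1.04c, which held most of the reads of the sum, was lower in the mutant, at -0.69 ± 0.11 untreated and -1.42 ± 0.11 after H2O2. SPAC212.04c, a more distant member, rose by 1.05 ± 0.15 and 2.30 ± 0.15 in mutant and wild type and was lower in the treated mutant (-1.01 ± 0.15).

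The ftm genes encode transmembrane proteins, and 6 of 8 members were not tested. The sum of ftm1, ftm4, ftm5 and SPBPB2B2.19c, most of it in ftm5, was 653 and 717 normalized counts in the treated mutant, 705 and 782 in the untreated mutant, 2540.3 and 3421 in treated wild type, and 1289 and 1436 in untreated wild type. It rose with H2O2 in wild type by 1.12 ± 0.13 and was at -0.12 ± 0.13 in the mutant, which was not called. The mutant was lower, at -0.87 ± 0.13 untreated and -2.11 ± 0.13 after H2O2 (limma on the sums, adjusted p = 0.000876 and 3.1e-06). The ftm1 copy alone held no read in the treated mutant and was at least 13.8-fold lower there than in treated wild type, with a floor of 3 reads per library. That floor covers counting only. Because ftm1 shares 97.65% of its 31-base stretches with other genes, its reads may have been assigned to another copy, and the value is no bound for ftm1.

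The 4 transporter genes SPBPB10D8.04c to SPBPB10D8.07c lie side by side at the left end of chromosome II. SPBPB10D8.05c had 1257 and 1543 normalized counts in the treated mutant, 0 and 288 in the untreated mutant, 601 and 0 in treated wild type, and 0 and 542 in untreated wild type, and SPBPB10D8.06c had 736 and 356 normalized counts in the treated mutant, 4787 and 4150.3 in the untreated mutant, 4514 and 4804 in treated wild type, and 5785 and 4296 in untreated wild type. SPBPB10D8.05c was at 0 in 3 libraries and present in the other library of each of these groups, and it was highest in the treated mutant, where SPBPB10D8.06c was lowest. The sum of the 4 genes was 2469 and 2517 normalized counts in the treated mutant, 6210.0 and 5806 in the untreated mutant, 6394 and 7232 in treated wild type, and 7916 and 6275 in untreated wild type. The treated mutant stood under all other libraries. The sum was at -1.27 ± 0.11 with H2O2 in the mutant and -0.05 ± 0.11 in wild type (limma on the sums, adjusted p = 7.93e-06 and 0.687), a difference of -1.22 ± 0.15. It was lower in the treated mutant than in treated wild type, at -1.45 ± 0.11. Under quantile normalization the sum also fell in wild type (-0.45 ± 0.11).

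**Figure D4:**
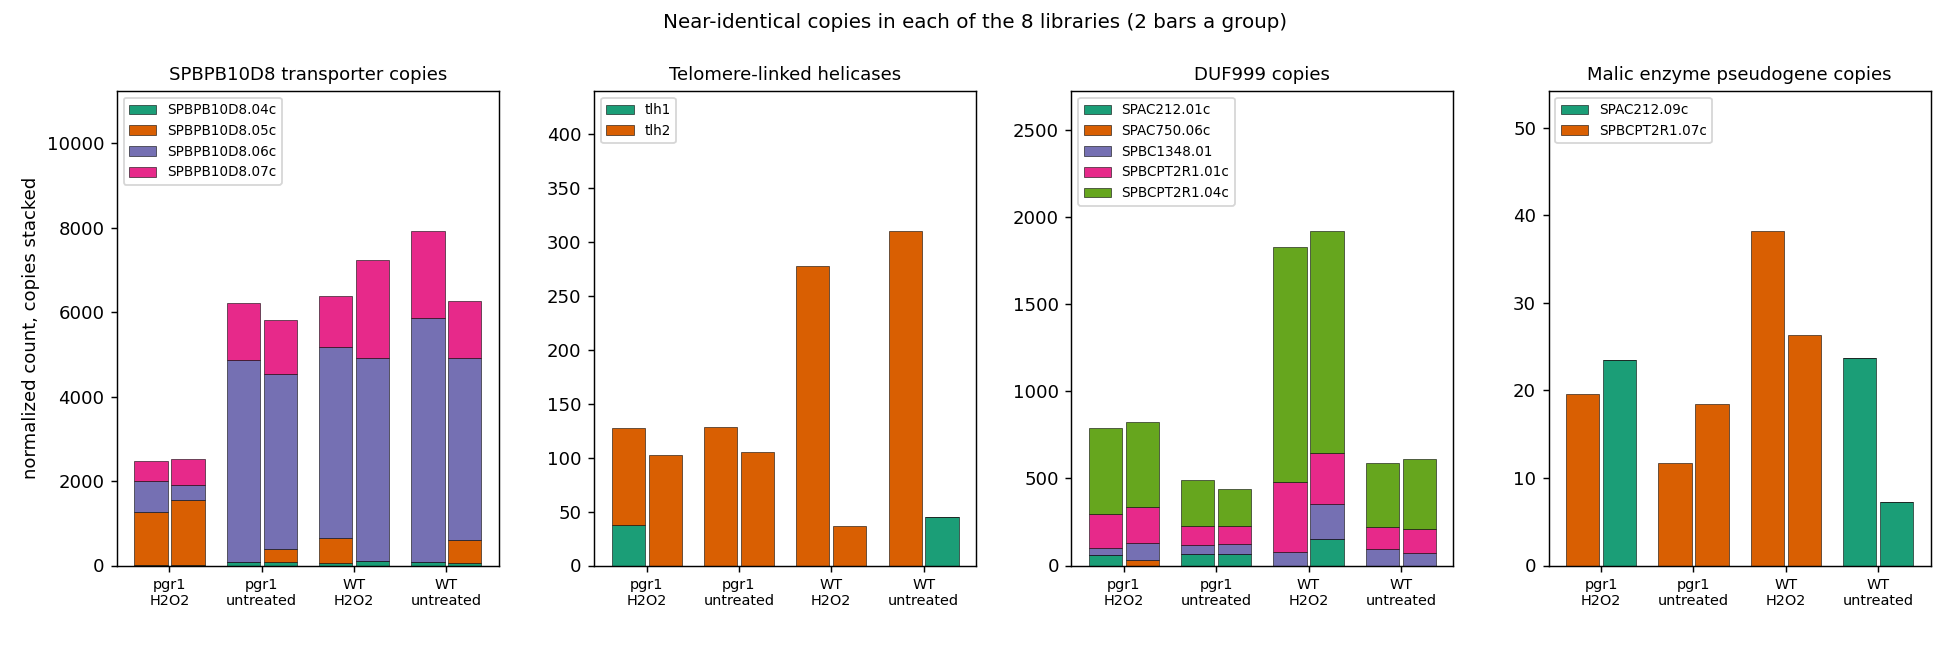
Normalized counts (y axes, from 0) of near-identical copies stacked for each of the 8 libraries, 2 bars a group, for the 4 SPBPB10D8 transporter genes, tlh1 and tlh2, 5 DUF999 genes and 2 malic enzyme pseudogenes. Colours are single copies. The copy that holds the reads changes between libraries of one group, as for tlh1 and tlh2 or SPAC212.09c and SPBCPT2R1.07c, while the bar height is alike for the transporter and DUF999 sums.

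The malic enzyme pseudogenes SPAC212.09c and SPBCPT2R1.07c had opposite calls as single copies. SPAC212.09c was called lower and SPBCPT2R1.07c called higher with H2O2 in wild type, where 1 of the pair held all the reads in each library. Their sum was 19.6 and 23.4 normalized counts in the treated mutant, 11.7 and 18.4 in the untreated mutant, 38.2 and 26.3 in treated wild type, and 23.6 and 7.29 in untreated wild type, and it was called in no comparison. SPAC750.02c, a transporter gene with near-identical copies, held no read in the treated mutant and was at least 6.23-fold lower there than in treated wild type by the floor of 3 reads per library. Its reads may have been assigned to another copy, so the value is no bound for SPAC750.02c. The sum of its copies was 20.8 and 18.98 normalized counts in the treated mutant, 17.1 and 10.9 in the untreated mutant, 37.0 and 42.1 in treated wild type, and 14.01 and 23.7 in untreated wild type, and this was lower in the treated mutant, at -0.96 ± 0.35, which was not called without any 1 of 5 libraries (between -1.05 and -0.87). SPAC212.08c, annotated among the surface glycoprotein genes, was called lower in the mutant (-0.70 ± 0.24 untreated), which ended without any 1 of 6 libraries (between -0.80 and -0.60). It also ended under DESeq2, a pseudocount of 0.5, a fit of the 2 groups alone and a replicate block. The sum of its near-identical copies was at -0.41 ± 0.18 untreated, not called, and at -0.78 ± 0.18 after H2O2, which was called.

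The L-asparaginase genes SPAC186.03 and SPBPB21E7.09 rose as a sum by 1.60 ± 0.11 in the mutant and 1.72 ± 0.11 in wild type. A second asparaginase pair, SPAC977.12 with the non-member SPBPB8B6.05c, was at -1.28 ± 0.09 and -1.21 ± 0.09 in mutant and wild type. The fluoride channel genes fex1 and fex2, of which fex1 is a member, were at -0.50 ± 0.12 and -0.56 ± 0.12 in mutant and wild type. The fall in the mutant was not called without treated mutant replicate 1 (-0.39). Of the 14 sums, 8 were lower and 1 higher in the treated mutant than in treated wild type, against 22.4% and 26.5% of all genes. In untreated cells 6 were lower and 1 higher in the mutant (15.8% and 22.8% of all genes). With H2O2 2 sums rose and 4 fell in the mutant (35.7% and 32.5% of all genes). In wild type 6 rose and 2 fell (37.7% and 34.6%). The difference of responses was negative for 4 and positive for 0 (15.3% and 12.0%).

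Genes of silencing and of telomere protection, which act on the ends but lie elsewhere, were read from lists of 47 genes, all tested. In the untreated mutant, where 22.8% of all genes were higher and 15.8% lower, 3 of 15 genes of RNA interference and histone H3 lysine 9 methylation were higher, as were 1 of 15 for heterochromatin proteins and deacetylases, 2 of 14 for telomere proteins and 0 of 3 Tup corepressor genes, and none was lower. With H2O2, 35.7% of all genes rose and 32.5% fell in the mutant, and 37.7% and 34.6% in wild type. Of the 15 genes of RNA interference and methylation 3 rose and 7 fell in each strain. Of the 15 genes of heterochromatin proteins and deacetylases 2 rose and 8 fell in the mutant, and 1 rose and 9 fell in wild type. Of the 3 Tup corepressor genes 1 rose and 1 fell in the mutant, and 1 rose and 2 fell in wild type. The methyltransferase gene clr4 was at -0.71 ± 0.12 in the mutant and -1.05 ± 0.12 in wild type. Its partner rik1 was at -0.65 ± 0.10 and -1.0 ± 0.10 in mutant and wild type. In the other direction, arb1 of the same list rose in the mutant (1.31 ± 0.09) and was at -0.21 ± 0.09, not called, in wild type. It was higher in the treated mutant than in treated wild type by 1.77 ± 0.09. In that comparison 6 of the 15 genes of this list were higher and 1 lower (26.5% and 22.4% of all genes). The other lists also held genes that were higher there. These were clr1, sir2, epe1 and fft3 of the heterochromatin list, rap1, ccq1, trt1, stn1 and bqt4 of the telomere list, and tup12. The telomere list's lem2 was lower. The corepressor gene tup12 rose by 1.23 ± 0.07 and 0.45 ± 0.07 in mutant and wild type. The gene swi6 was called in no comparison. Of the 14 telomere genes 6 rose and 7 fell in the mutant, and 4 rose and 7 fell in wild type. Among those that fell were pot1 (-0.96 ± 0.11 and -1.05 ± 0.11 in mutant and wild type), which encodes a protein of the telomere's single-stranded end, and rif1 (-0.94 ± 0.06 and -1.09 ± 0.06), whose protein binds Taz1. The anchoring gene bqt4 rose (1.27 ± 0.07 and 1.47 ± 0.07). The gene rap1, whose protein also binds Taz1, rose by 1.80 ± 0.13 with H2O2 in the mutant and by 0.38 ± 0.13 in wild type, and was higher in the treated mutant than in treated wild type by 1.73 ± 0.13. The lists' genes and the genes of the ends share all 8 libraries, and no relation between them was tested.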

How the data were processed

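Poly(A) RNA from 8 libraries was prepared with a stranded kit, per the labels' protocols. The authors deposited 1 table of signal values, DESeq2-normalized counts per gene, not whole numbers. The submitters' processing notes name FastQC, Trimmomatic, Salmon and DESeq2 and the build ASM294v2; no source used here gives their versions or the strand setting. Dividing each column by the value of 1 read gave whole reads for 99.98% to 100% of genes in each library (tolerance 0.05 reads). A further line of the table names no gene and holds no values (0% of each library); it was left out.

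The 5028 of 5165 genes that reached 10 in 2 or more libraries were fitted as log2(value + 1) with limma 3.58.1 (trended eBayes, R 4.3.3), with 1 mean per group over all 8 libraries. Tests were two-sided, with Benjamini-Hochberg adjustment over all genes tested and a threshold of 0.05. The code was tested on simulated data. Alternatives were pseudocounts of 0.5 and 5, no filter, a filter at 50, quantile normalization, edgeR 4.0.16 and DESeq2 1.42.0 on the recovered reads, a fit of 2 groups alone, a replicate block, summed copies and each library left out. Summing copies that share 5%, and counting only members that share less, were chosen after seeing the data. On the recovered reads edgeR called between 1385 and 3649 genes a comparison, and DESeq2 between 1212 and 3470, against 1372 to 3635 with limma.

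Names, biotypes, gene order, overlap on the opposite strand and shared 31-base stretches come from the RefSeq reference ASM294v3, which matched 5129 of 5165 identifiers and all 141 members. Its coordinates and sequences are not printed, because the build differs, and no promoter was searched. Summed copies share at least 50% of their 31-base stretches. Levels of less than 3 reads per library were set to that floor for bounds; 95% intervals of ratios cover counting error only. The members, the roles and the lists of silencing and telomere genes were chosen with earlier results of these data known. Named members were the 6 highest and 6 lowest called in each comparison with at least 20 normalized counts in a group and no overlap, the galactose cluster, the copies, and examples of each role; other members were named after their values were seen, as neighbours or as exceptions.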

Additional observations from a re-analysis of the deposited data

Results flagged for a closer look

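The log2 response to H2O2 of the pgr1 mutant minus that of wild type passed the threshold of the limma interaction contrast for 36 members, each value below being that difference. The difference was positive for 5: dak2 (1.97), SPAC11D3.19 (1.66), SPAC977.17 (1.56), SPAC5H10.05c (0.71) and SPAC11D3.04c (0.49). Among them dak2 and SPAC977.17 rose in the mutant and fell in wild type. SPAC11D3.19 fell in wild type and was at -0.59, not called, in the mutant. Its difference was not called without any 1 of 5 libraries (between 1.33 and 1.70).

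For 31 members the difference was negative. The sugar genes among them were gal10 (-0.54), gal7 (-0.85) and tgd1 (-0.95), whose transcripts rose with H2O2 in both strains. Genes of reductases, methyltransferases and Con-6 proteins were SPAC186.02c (-2.21), SPAC5H10.10 (-0.86), SPAC977.14c (-1.28), pcm2 (-1.99), cmt2 (-1.80), SPAC869.09 (-2.64) and SPAC11D3.01c (-1.30). Genes of amino acid transport and splitting, and the sterol deacetylase gene, were cat1 (-1.05), SPAC11D3.08c (-0.83), SPAC11D3.09 (-2.49) and say1 (-1.48). Further enzyme genes and regulators were aes1 (-2.29), SPAC11D3.02c (-1.07), pan6 (-0.52) and SPAC11D3.17 (-1.10). Uncharacterised genes and pseudogenes were SPBPB21E7.11 (-3.65), SPAC11D3.16c (-0.67), SPAC977.13c (-1.36) and SPBPB21E7.08 (-0.84).

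The other 9 are uncertain copies: plb4 (-0.54), SPAC212.04c (-1.26), SPBCPT2R1.04c (-0.73), ftm5 (-1.22), SPBPB10D8.04c (-3.38), SPBPB10D8.06c (-3.02), SPBPB10D8.07c (-1.30), SPAC750.02c (-4.14) and SPBCPT2R1.07c (-6.82). SPAC750.02c had no read in the treated mutant and SPBCPT2R1.07c none in untreated wild type, so their fitted values depend on the added 1 and are no bounds. With near-identical copies summed the difference was -0.56 for the copies of SPAC750.02c and -0.68 for those of SPBCPT2R1.07c, and neither was called. The contrast was called for 27.3% of all genes tested.

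Several of these calls ended under other settings. Without any 1 of 4 to 6 libraries the difference was not called for gal10 (between -0.58 and -0.41), SPAC186.02c (between -2.41 and -2.01), SPAC5H10.10 (between -0.89 and -0.69), SPAC11D3.17 (between -1.19 and -1.0), cmt2 (between -2.04 and -1.25), SPBPB10D8.07c (between -1.47 and -0.84) and SPAC750.02c (between -4.24 and -2.88). Leaving out 1 particular library ended the call of pan6 (-0.50), pcm2 (-1.89), plb4 (-0.49), SPBPB10D8.04c (-2.89) and SPBCPT2R1.07c (-6.52). Under quantile normalization it was not called for gal10 (-0.47), tgd1 (-0.43), SPAC186.02c (-1.76), SPAC5H10.10 (-0.71), SPAC11D3.17 (-0.90), SPAC977.13c (-0.88), SPBCPT2R1.04c (-0.42), plb4 (-0.36), SPBPB10D8.07c (-1.07) or SPAC869.09 (-1.44). A pseudocount of 5 ended the call of SPAC869.09 (-1.36) and SPAC750.02c (-2.20), and DESeq2 that of SPBPB10D8.07c (-1.33).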

How the results depend on the processing

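Counts of members called stayed within 1.5 times their main value under every alternative run. With H2O2 in the mutant 60 members were called in the main fit, between 46 and 67 in the alternatives, and between 54 and 63 with 1 library left out. With H2O2 in wild type the main count was 65, with 51 to 70 and 59 to 69. For the mutant against wild type it was 51 untreated, with 43 to 57 and 35 to 56, and 61 after H2O2, with 46 to 65 and 50 to 63. For the difference of responses it was 36, with 26 to 43 and 27 to 39. The lowest counts in the alternatives came from counting only members that share under 5% of their sequence, which leaves 67 members.

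Of 273 calls of single members, 201 held under every setting run for them and 72 ended under at least 1, 63 of them when 1 library was left out. The filter at 50, the fit of 2 groups and the sums of copies gave no value for some of these calls. Ended calls numbered 9 with H2O2 in the mutant, 10 with H2O2 in wild type, 19 between untreated strains, 17 between treated strains and 17 in the difference. The direction of 2 calls turned, each when copies were summed. SPAC212.09c with H2O2 in wild type was at -3.84 alone, 1.19 with near-identical copies summed and 1.09 with copies sharing 5% summed. SPAC750.02c with H2O2 in the mutant was at -3.67 alone, 0.508 and 0.0628 in these sums.

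Replicate numbers are shared between groups. Deviations of same-numbered libraries correlated between groups at Pearson r of -0.14 to 0.37 across genes, which are not independent. The highest values were 0.37 between the untreated groups and 0.34 between the wild-type groups. The numbers were not taken as pairs in the main fit, and a shared source of same-numbered libraries was not tested. With the replicate number as a block, 64, 69, 57, 65 and 43 members were called, against 60, 65, 51, 61 and 36 without it, in the order of comparisons above.

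With 2 libraries a group and 12026222 to 14125543 reads each, members under about 10 normalized counts were not tested. Reads of near-identical copies and of genes opposite each other could not be assigned with certainty. The fold of a gene with a group at 0 is a bound only, and for a single near-identical copy it is no bound. A single deletion strain was sequenced, so a change carried by that strain and the deletion cannot be told apart.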
